A study of Rattus norvegicus with 24 samples.

Results

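Histone deacetylases remove acetyl groups from lysines of histones and of other proteins, and so oppose the acetyltransferases that place them. Deacetylated histone tails bind DNA more tightly, and the class I enzymes Hdac1, Hdac2, Hdac3 and Hdac8 act on them mostly in the nucleus, all but Hdac8 as parts of corepressor complexes. The class IIa enzymes Hdac4, Hdac5, Hdac7 and Hdac9 bind MEF2 transcription factors and leave the nucleus once calcium-dependent kinases have phosphorylated them. Hdac6, of class IIb, deacetylates tubulin in the cytoplasm, and Hdac11 is the only member of class IV. In the mouse hippocampus Hdac2 and Hdac3 are known to restrain the formation of long-term memory, while loss of Hdac4 from the forebrain impairs it.

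The messenger RNA of these 10 genes was examined in the CA1 field of the hippocampus of aged and young rats. Every probe set whose platform annotation gave one of the 10 symbols and no other was taken. This gave 11 probe sets of 9 genes. The whole table held 31099 probe sets, of which 20832 carried a single symbol, for 14218 genes. Hdac9 was named by no such probe set and was not analysed here. Hdac1 and Hdac5 had 2 probe sets each and the other genes 1. This match of probe sets to symbols used the annotation alone, not the signals. The 10 genes themselves were chosen with earlier results of these data known.

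All rats were untreated, individually housed males of the outbred Long-Evans stock. The aged impaired group held 8 rats and the aged unimpaired group 6, all 24 to 26 months old. The young group held 9 rats of 6 months. By deposit order, young replicate 9 falls where aged unimpaired replicate 6 would be. No array is labelled aged unimpaired replicate 6, and young replicate 9 was used under its own label. An index of spatial learning in the Morris water maze put an aged rat in the impaired group where it did worse than the young rats and in the unimpaired group where it fell within their range, so the aged groups are parts of one graded measure. Each array was labelled as a separate biological replicate. The signals were the authors' log2 values per probe set, made with GCRMA, whose precision is limited by how many arrays each group holds.

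Arrays correlated with each other across genes at a median of 0.990 to 0.994. The CA1 pyramidal markers Wfs1 and Fibcd1 were bright on every array, with lowest signals of 10.8 and 10.5. Prox1, a marker of dentate granule cells, was also measured on every array. It ran from 7.06 to 8.33 in aged impaired, 6.49 to 7.73 in aged unimpaired and 6.83 to 8.58 log2 units in young arrays. Its part in the values below was not tested. In bulk tissue, fewer cells of a type and less RNA per cell cannot be told apart.

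No tested histone deacetylase gene differed between any of the groups at the threshold used. A gene was tested where a probe set exceeded 4 log2 units on at least 6 arrays, and its brightest such probe set stood for it. That left 8 of the 10 genes among 9076 tested. A linear model of the 3 group means was fitted across all of them with limma, and genes with a Benjamini-Hochberg adjusted p under 0.05 were called. In aged against young CA1, 0 of the 8 histone deacetylase genes were called and 0 had an unadjusted p under 0.05. Over all genes tested, 3.71% were called and 15.3% had an unadjusted p under 0.05. In aged impaired against young CA1, 0 of 8 were called, against 3.80% of all genes, and 2 had an unadjusted p under 0.05, against 16.5% of all genes. In aged unimpaired against young CA1, 0 of 8 were called, against 0.760% of all genes, and 0 had an unadjusted p under 0.05, against 9.84%. Between aged impaired and aged unimpaired CA1, 0 of 8 were called and 0 had an unadjusted p under 0.05, against 0.00% and 6.93% of all genes.

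The median difference of the 8 genes was -0.026 log2 units for aged minus young, where the median of all genes tested was 0.011. It was -0.0040 for aged impaired minus young and -0.010 for aged unimpaired minus young, where the medians of all genes were 0.0079 and 0.015. Both aged groups were set against the same young arrays, so these values are not independent. The 95% confidence intervals of limma, taken gene by gene, reached at most 0.46, 0.56, 0.43 and 0.45 log2 units from 0 in the comparisons of aged with young, impaired with young, unimpaired with young, and impaired with unimpaired. All 4 bounds were those of Hdac4, the gene with the widest intervals. The bound of 0.56 log2 units corresponds to 1.47-fold.

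**Figure D1:**
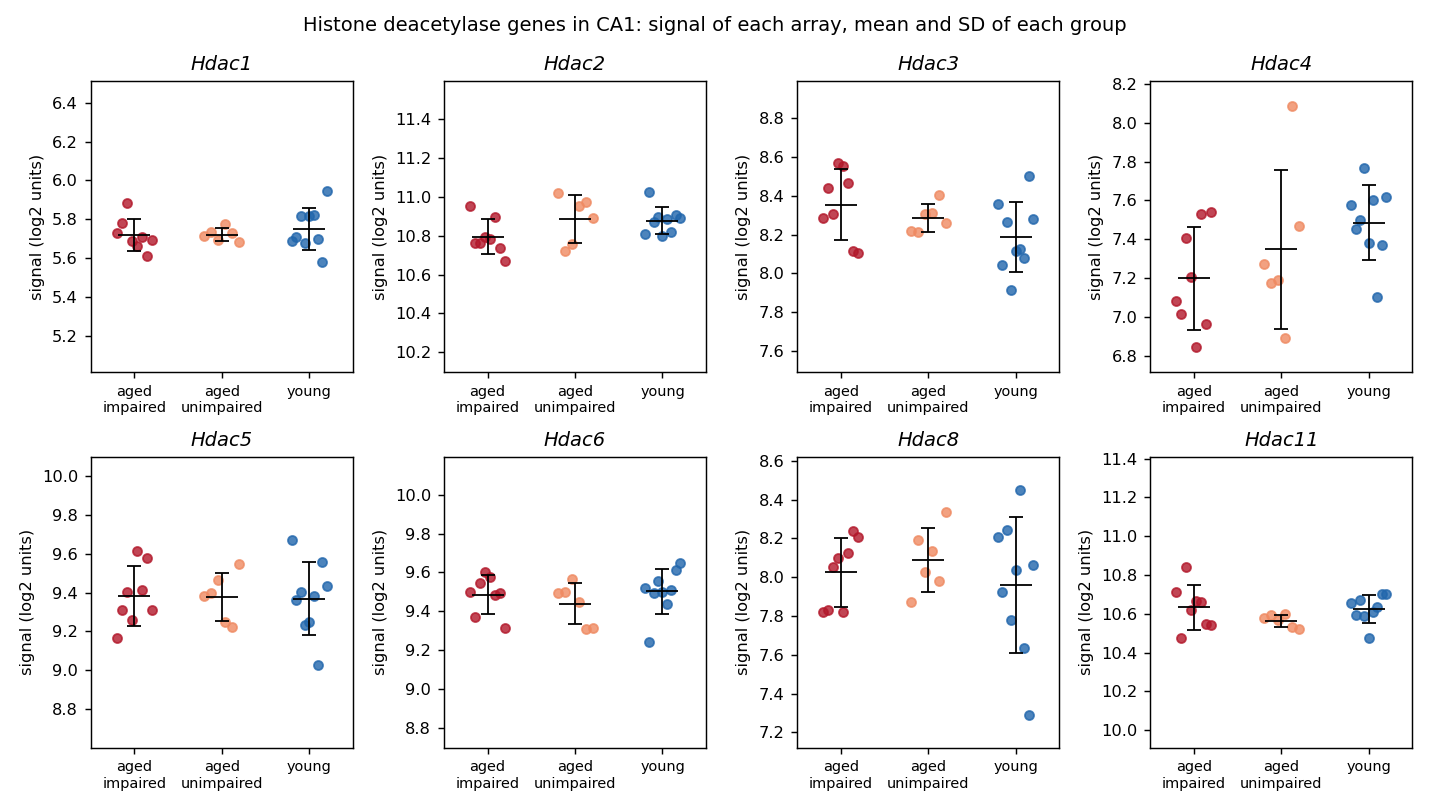
Log2 signal of the 8 tested histone deacetylase genes in aged impaired, aged unimpaired and young arrays (1 point an array; bars, mean and SD). Each panel spans the same number of log2 units, and within each gene the 3 groups overlap. Hdac4 in the aged groups and Hdac8 in the young group scatter most, and Hdac11 in aged unimpaired arrays least. Heights of different genes are not comparable, since each probe set has its own brightness.

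Hdac2, the class I enzyme most studied as a brake on memory genes, was slightly lower in aged impaired arrays than in either other group, by less than the test could call. Its signal had a low of 10.67, a median of 10.77 and a high of 10.95 in aged impaired arrays. In aged unimpaired arrays these values were 10.72, 10.92 and 11.02. In young arrays they were 10.80, 10.89 and 11.03. Of the 8 aged impaired arrays, 6 lay below every young array, as did 2 of the 6 aged unimpaired arrays, and the ranges overlapped. The means were 10.79 ± 0.09 (SD, n = 8) in aged impaired, 10.89 ± 0.12 (SD, n = 6) in aged unimpaired and 10.88 ± 0.07 (SD, n = 9) in young arrays. The difference of aged impaired minus young was -0.084 ± 0.047 log2 units (SE; 95% interval -0.18 to 0.014; limma, adjusted p = 0.391), or 0.944-fold. The difference of aged impaired minus aged unimpaired was -0.092 ± 0.052 (95% interval -0.20 to 0.016; limma, adjusted p = 0.757). The medians of the CA1 pyramidal markers were negative in the same comparisons. Over 10 of them the median difference was -0.098 for aged impaired minus young, with 8 of 10 negative. There 3 were lower and 1 higher at an unadjusted p under 0.05, against 16.5% of all genes. For aged impaired minus aged unimpaired it was -0.14, with 5 lower at that threshold, against 6.93% of all genes. For aged impaired minus aged unimpaired 47.4% of all genes tested were positive. In the other marker lists 15 of 16 oligodendrocyte, 10 of 11 endothelial, 10 of 13 astrocyte and 9 of 12 microglia markers were positive there. So were 5 of 6 markers of oligodendrocyte precursors, 4 of 6 of dentate and CA3 cells and 5 of 11 of interneurons. The part of these markers in the values of Hdac2 was not tested. In order of level of Hdac2, aged impaired stood lowest and the other groups differed from each other by 0.0087 ± 0.051.

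Hdac3, the catalytic subunit of the NCoR and SMRT corepressor complexes, had the largest positive difference of aged impaired from young arrays in the family, again without a call. Its signal ran from 8.11 to 8.57 in aged impaired arrays, with a median of 8.37. It ran from 8.21 to 8.41 in aged unimpaired arrays, with a median of 8.28, and from 7.91 to 8.50 in young arrays, with a median of 8.13. The young arrays were topped by 2 aged impaired arrays and by no aged unimpaired one, while 3 of the 9 young arrays lay below every aged array. The difference of aged impaired minus young was 0.17 ± 0.076 log2 units (95% interval 0.010 to 0.32; limma, unadjusted p = 0.0381, adjusted p = 0.268), or 1.12-fold. For aged unimpaired minus young it was 0.098 ± 0.082 (limma, adjusted p = 0.788). The 3 groups stood in the order aged impaired, aged unimpaired and young, from high to low, and no step between neighbours exceeded 0.098. The probe set of Hdac3 carries the suffix that Affymetrix gives to probes shared by several transcripts of a gene.

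Hdac1, the close relative of Hdac2 found in the same complexes, differed little in mean between groups. Its brighter probe set had a median of 5.70 in aged impaired (range 5.61 to 5.88), 5.72 in aged unimpaired (5.68 to 5.78) and 5.71 in young arrays (5.58 to 5.95). Differences from young were -0.031 ± 0.045 for aged impaired and -0.029 ± 0.049 for aged unimpaired, with adjusted p of 0.808 and 0.923 (limma). The dimmer probe set gave differences of -0.082 ± 0.11 and -0.091 ± 0.12. After removal of group means the 2 probe sets had a correlation of 0.28 over the 23 arrays. The probe sets also differed in where they were spread. In the aged unimpaired group the brighter one had its lowest SD, 0.034, and the dimmer one its highest, 0.32. Young replicate 9 had the highest young signal of the brighter probe set, 5.95, and without it the differences from young were -0.0061 for aged impaired and -0.0042 for aged unimpaired.

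Hdac8, a class I enzyme that works outside those complexes and deacetylates cohesin, varied most among young rats. Its signal ran from 7.82 to 8.24 in aged impaired arrays, with a median of 8.08. The aged unimpaired arrays ran from 7.87 to 8.33, with a median of 8.08, and the young arrays from 7.29 to 8.45, with a median of 8.04. The young range contained all 14 aged arrays, and 3 young arrays lay below all of them. Differences from young were 0.065 ± 0.12 for aged impaired and 0.13 ± 0.13 for aged unimpaired (limma, adjusted p = 0.856 and 0.836). They depended on young replicate 8, the array at 7.29, without which they were -0.018 and 0.047.

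Hdac4, the class IIa enzyme with the strongest link to hippocampal plasticity in mouse, had the largest difference of the family and the widest spread. Its signal ran from 6.84 to 7.54 in aged impaired arrays, with a median of 7.14. It ran from 6.89 to 8.09 in aged unimpaired arrays, with a median of 7.23, and from 7.10 to 7.77 in young arrays, with a median of 7.50. Of the 8 aged impaired arrays, 4 lay below every young array, and 4 of the 9 young arrays lay above every aged impaired array. The group means were 7.20 ± 0.27 (SD, n = 8) in aged impaired, 7.35 ± 0.41 (SD, n = 6) in aged unimpaired and 7.49 ± 0.19 (SD, n = 9) in young arrays. The difference of aged impaired minus young was -0.29 ± 0.13 log2 units (95% interval -0.56 to -0.018; limma, unadjusted p = 0.0374, adjusted p = 0.266), or 0.819-fold.

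For Hdac4 in aged unimpaired minus young arrays the difference was -0.14 ± 0.14 (limma, adjusted p = 0.844), and for aged impaired minus aged unimpaired it was -0.15 ± 0.15 (limma, adjusted p = 0.872). Both values depended on 1 array, in opposite ways. Aged unimpaired replicate 5, at 8.09, lay above every other array of the series, while 3 of the other 5 aged unimpaired arrays lay between 7.17 and 7.27. Without it the difference of aged unimpaired minus young grew in size to -0.29, and that of aged impaired minus aged unimpaired shrank to -0.0017. Neither of them was called. Hdac4 had the smallest adjusted p of aged minus young in that setting, at 0.0985 (limma; 0.363 with all arrays).

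**Figure D2:**
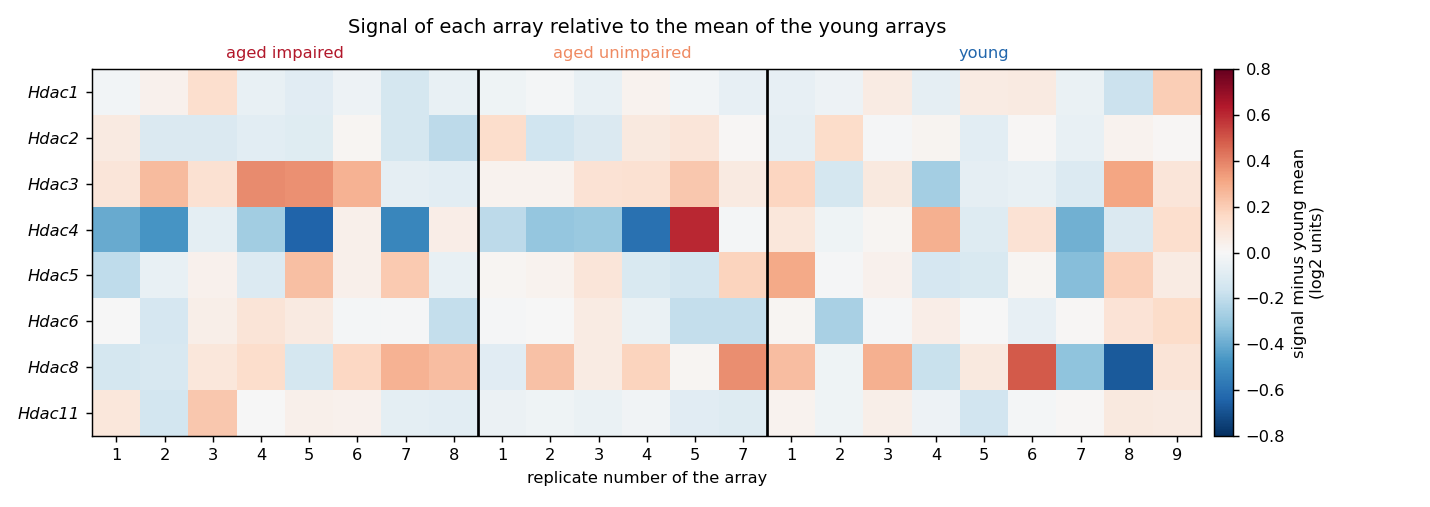
Log2 signal of each array minus the mean of the young arrays for the 8 tested genes (red, above the young mean; blue, below it), with aged impaired, aged unimpaired and young arrays from left to right. Hdac4 is blue in most aged arrays but deep red in aged unimpaired replicate 5, and Hdac3 is red in 6 of 8 aged impaired and 6 of 6 aged unimpaired arrays.

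Hdac5, whose nuclear export follows neuronal activity as that of Hdac4 does, had the smallest difference of aged from young arrays in the family. The brighter probe set had a median of 9.36 in aged impaired (range 9.17 to 9.61), 9.39 in aged unimpaired (9.22 to 9.55) and 9.38 in young arrays (9.03 to 9.67). Differences from young were 0.013 ± 0.076 for aged impaired and 0.0085 ± 0.083 for aged unimpaired (limma, adjusted p = 0.963 and 0.992). The other probe set was near the limit of 4 log2 units, which it exceeded on 3 of 8 aged impaired, 1 of 6 aged unimpaired and 5 of 9 young arrays. Its differences from young were -0.059 ± 0.12 and -0.11 ± 0.13 log2 units. Counting probe sets in place of genes, 0 of the 10 histone deacetylase probe sets past the limit were called in any comparison. Over the 12193 probe sets tested, 2.58% were called in aged against young, 2.60% in impaired against young, 0.508% in unimpaired against young and 0.00% in impaired against unimpaired arrays.

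Hdac7, a class IIa enzyme known from endothelial cells and thymocytes, did not exceed the limit on any array. Its single probe set lay between 2.54 and 2.60 in aged impaired, 2.54 and 2.57 in aged unimpaired and 2.54 and 2.61 log2 units in young arrays. These values differ by less than 0.1 over all 23 arrays and stand at the low end of the signals, so they give no level of the transcript, and Hdac7 was not among the genes tested. In a fit of all probe sets without the limit, the difference of aged minus young was -0.0098 log2 units (limma, adjusted p = 0.560). They do not show that Hdac7 is not transcribed in CA1.

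Hdac6, which deacetylates alpha-tubulin and carries ubiquitinated proteins to aggresomes, had means close to each other in the 3 groups. Its signal had a median of 9.50 in aged impaired (range 9.31 to 9.60), 9.47 in aged unimpaired (9.31 to 9.57) and 9.51 in young arrays (9.24 to 9.65). Differences from young were -0.016 ± 0.054 for aged impaired and -0.063 ± 0.058 for aged unimpaired (limma, adjusted p = 0.926 and 0.817). The 95% interval of aged minus young, -0.13 to 0.061 log2 units, corresponds to 0.911-fold to 1.04-fold.

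Hdac11, the class IV enzyme, which also removes fatty acyl groups from proteins and is abundant in brain, gave the most precise differences of the family. It had a median of 10.64 in aged impaired (range 10.48 to 10.84), 10.57 in aged unimpaired (10.52 to 10.60) and 10.64 in young arrays (10.48 to 10.70). The aged unimpaired arrays lay within 0.077 log2 units of each other, and 5 of the 8 aged impaired arrays and 6 of the 9 young arrays lay above all of them. The difference of aged impaired minus aged unimpaired was 0.069 ± 0.048 (95% interval -0.031 to 0.17; limma, adjusted p = 0.820). For aged unimpaired minus young it was -0.061 ± 0.047 (limma, adjusted p = 0.761) and for aged impaired minus young 0.0083 ± 0.044 (limma, adjusted p = 0.958).

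**Figure D3:**
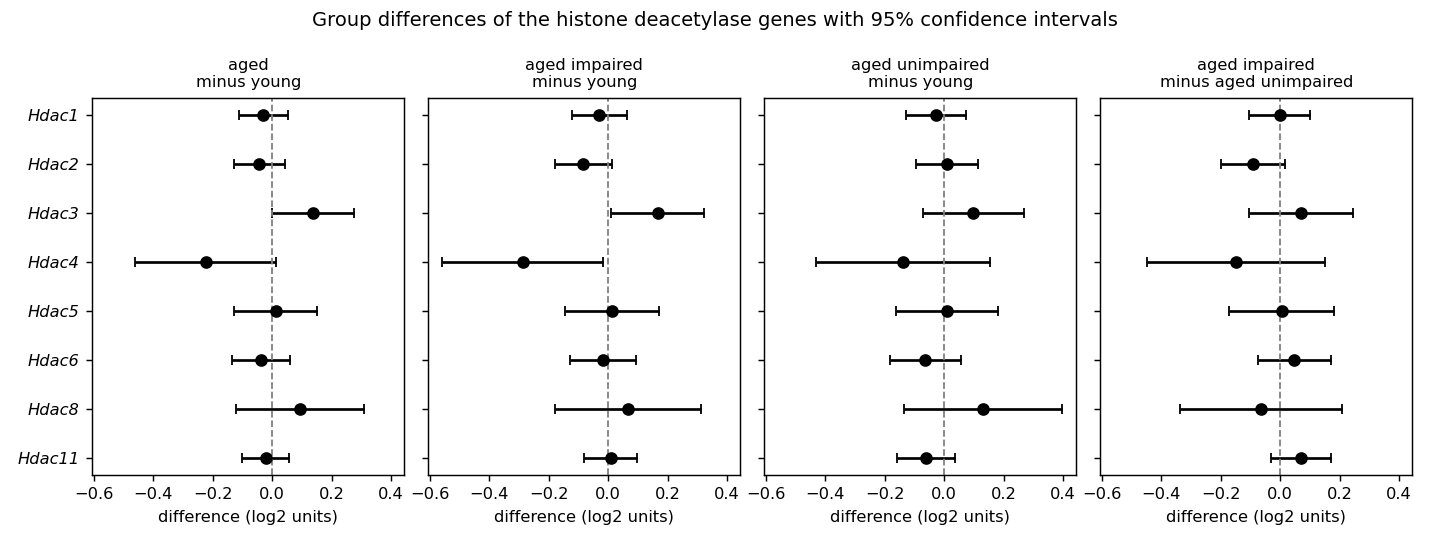
Difference of group means (log2 units) for the 8 tested genes in the 4 comparisons, with 95% confidence intervals from limma that are not adjusted for the number of genes. Only Hdac3 and Hdac4 in aged impaired minus young arrays have intervals that leave out 0, and neither passes once p-values are adjusted over 9076 genes.

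The members varied little with one another among rats of a group. After removal of the group means, the 28 pairs of the 8 genes had a median correlation of 0.086 over the 23 arrays. The median over all pairs of a member with a tested gene was 0.069. The highest value was 0.50, for Hdac6 with Hdac11, and the lowest -0.31, for Hdac4 with Hdac6. The closely related Hdac1 and Hdac2 stood at 0.0041. Each value is a description of these arrays, which share their processing.

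For each member the tested genes most like it were sought in the same way, among 9075 others. The most alike were Snx11, a sorting nexin, with Hdac3 (r = 0.85), Clk4, a kinase of splicing factors, with Hdac11 (r = 0.83), and Fam76b with Hdac6 (r = 0.81). Bicra, a subunit of a chromatin remodelling complex, followed Hdac4 (r = 0.80), Ccdc141 followed Hdac5 (r = 0.79) and Tmem69 followed Hdac1 (r = 0.77). Tceal5 was most like Hdac2 (r = 0.74) and Ccer2 most like Hdac8 (r = 0.73). The lysine demethylase gene Kdm1a came after Tmem69 and Sync for Hdac1 (r = 0.68), and the methyltransferase gene Ehmt2 after Ccdc141 and Adgrb1 for Hdac5 (r = 0.78). These are the extremes of many values and are given without a test.

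Genes for proteins that work with, against or under histone deacetylases gave 1 call in all. Among 33 tested genes of the corepressor complexes, 0 were called in any comparison, and 2, 4, 3 and 2 had an unadjusted p under 0.05 in aged against young, impaired against young, unimpaired against young and impaired against unimpaired arrays. Over all genes tested 3.71%, 3.80%, 0.760% and 0.00% were called in these comparisons. The shares with an unadjusted p under 0.05 were 15.3%, 16.5%, 9.84% and 6.93%. Both kinds of count in the lists that follow are to be read against the same shares. The nearest was Rcor1, the scaffold of the CoREST complex, which was noticed after its values were seen. Its difference of aged impaired minus young was -0.37 ± 0.11 log2 units (limma, adjusted p = 0.0751), and it was called without aged impaired replicate 8, without young replicate 3 or without the 3 arrays that correlated least with the others (adjusted p = 0.0407, 0.0476 and 0.0337; over all alternatives the list had at most 1 call). Among 5 sirtuins, the NAD-dependent deacylases of class III, 0 were called, and 1 had an unadjusted p under 0.05, in unimpaired against young arrays only.

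Among 15 acetyltransferases and coactivators 0 were called, with 1, 2, 0 and 0 at an unadjusted p under 0.05 in the 4 comparisons in the same order. Their median difference was -0.027 log2 units for aged impaired minus young and -0.00080 for aged unimpaired minus young, where the medians of all genes were 0.0079 and 0.015. Among 18 bromodomain and related readers of acetyl-lysine 0 were called, with 1, 2, 0 and 2 at an unadjusted p under 0.05. Among 24 genes for MEF2 factors, 14-3-3 proteins, kinases and other partners of class IIa enzymes 0 were called, with 0, 2, 0 and 1 at an unadjusted p under 0.05. Among 11 substrates and partners of Hdac6 0 were called, with 0, 1, 0 and 1 at an unadjusted p under 0.05.

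Among 20 plasticity genes whose promoters Hdac2 is known to bind in mouse hippocampus, 1 was called, the postsynaptic scaffold gene Homer1 in aged impaired against young arrays, where 3.80% of all genes were called. A count of 1 in 20 is near that share and is no result about the list. Its signal ran from 9.91 to 10.36 in aged impaired arrays, with a median of 10.12. It ran from 10.26 to 10.39 in aged unimpaired arrays, with a median of 10.33, and from 10.05 to 10.73 in young arrays, with a median of 10.42. The aged impaired and young ranges overlapped. Homer1 fell by 0.27 ± 0.072 log2 units in aged impaired arrays against young arrays (limma, adjusted p = 0.0381). The difference of aged unimpaired minus young was -0.065 ± 0.078 (limma, adjusted p = 0.880), and that of aged impaired minus aged unimpaired, which tests the contrast between the aged groups, was -0.20 ± 0.080 (limma, adjusted p = 0.651). Between the aged groups 5 of 10 CA1 pyramidal markers were lower in aged impaired arrays at an unadjusted p under 0.05, against 6.93% of all genes. The dentate marker Prox1 differed by 0.67 ± 0.25 (limma, adjusted p = 0.632). It had the smallest p of 6 tested markers of dentate and CA3 cells, of which 4 were positive and 2 were higher at that threshold. None of these markers was called between the aged groups. In aged impaired minus young arrays, where Homer1 was called, Prox1 differed by 0.19 ± 0.22 (limma, adjusted p = 0.745). There 0 of the 6 dentate and CA3 markers had an unadjusted p under 0.05. Of the 10 CA1 pyramidal markers 3 were lower and 1 higher at that threshold, against 16.5% of all genes. The part of these markers in the values of Homer1 was not tested.

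The call of Homer1 depended on single arrays. It was lost in 9 of the 23 fits that left out 1 array, those without aged impaired replicate 2, 4, 6 or 7 or young replicate 2, 3, 7, 8 or 9, where the adjusted p reached 0.0871 (limma). The difference itself stayed between -0.31 and -0.22 log2 units in all 23. It was also lost with the mean of its 5 probe sets in place of the brightest one, at -0.50 ± 0.19 (limma, adjusted p = 0.158). With that mean the difference of aged unimpaired minus young turned to 0.12. All 5 probe sets were lower in aged impaired than in young arrays, with differences of -0.20 to -0.93 log2 units, and only the brightest passed when probe sets were tested. Apart from Homer1, the list had 0 called genes in any comparison and, with Homer1, 1, 3, 2 and 3 at an unadjusted p under 0.05. Its median difference was -0.053 for aged impaired minus young and -0.029 for aged unimpaired minus young.

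**Figure D4:**
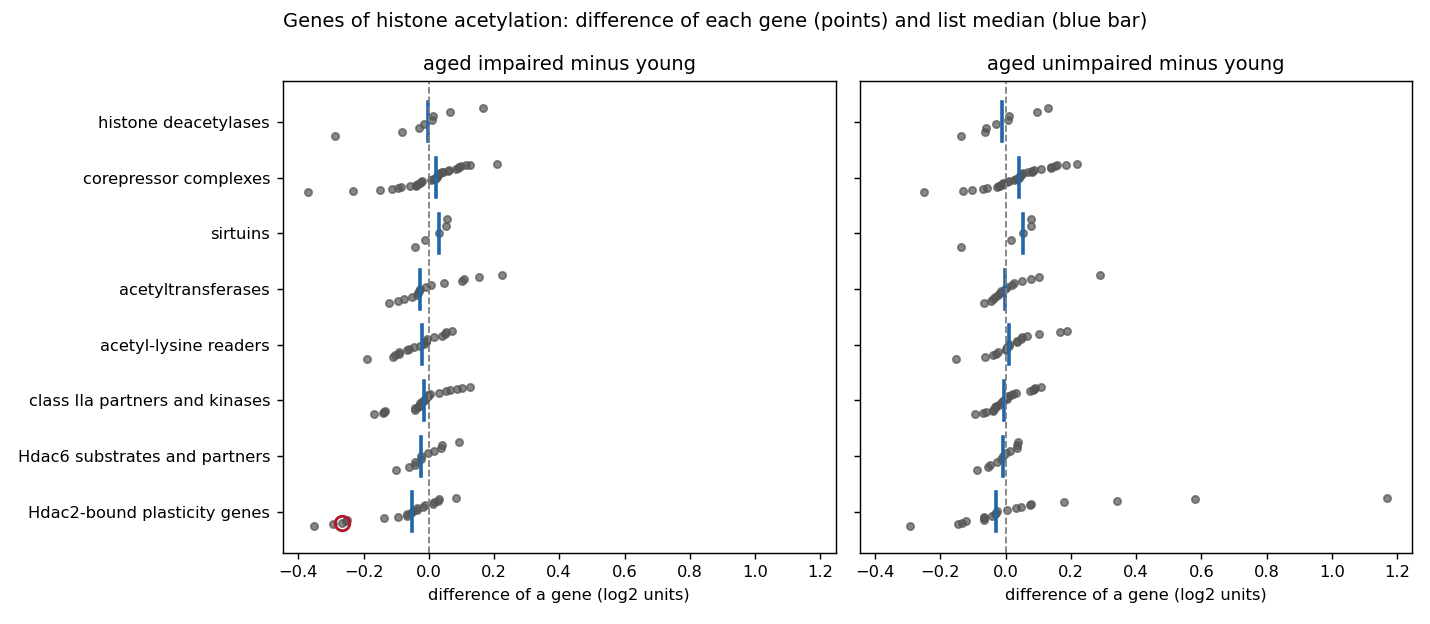
Difference of each tested gene (grey points, log2 units) in aged impaired minus young and aged unimpaired minus young arrays, for the histone deacetylases and 7 lists of related genes; blue bars are list medians and the red ring marks the only called gene, Homer1. The medians of all lists stay within 0.06 log2 units of 0 in both panels.

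Markers of several cell types differed with age in the same arrays. In aged against young arrays 3.71% of all genes were called and 15.3% had an unadjusted p under 0.05. Of 12 tested markers of microglia 7 were called, all higher in aged arrays, with the Fc receptor subunit gene Fcer1g first at 0.59 log2 units. The mean log2 signal of the list ran from 8.19 to 8.60 in aged impaired, 8.19 to 8.50 in aged unimpaired and 7.72 to 8.26 in young arrays. Of 11 endothelial markers 4 were called, all lower in aged arrays, with list means of 7.52 to 7.98 in aged impaired, 7.38 to 7.74 in aged unimpaired and 7.60 to 8.12 in young arrays. Of 13 astrocyte markers 2 were called, Gfap and S100b, both higher in aged arrays.

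The oligodendrocyte markers had no common direction in aged minus young arrays. Of 16, Myrf alone was called there, at 0.21 log2 units. At an unadjusted p under 0.05 there were 5 higher and 3 lower, with Ugt8 at -0.39 (limma, adjusted p = 0.0726). In aged unimpaired minus young arrays their median was -0.011, with 2 higher and 4 lower. Most were positive in aged impaired arrays. Against young arrays 13 of 16 were positive, with Opalin and Myrf called higher, where 3.80% of all genes were called. Against aged unimpaired arrays 15 of 16 were positive, with a median of 0.12. There 5 were higher and 0 lower at an unadjusted p under 0.05, against 6.93% of all genes, and 0 were called. Of 10 CA1 pyramidal markers 1 was called higher (Etv1) and 1 lower (Dcn) in aged arrays, and 0 of 11 interneuron markers were called, with 2 at an unadjusted p under 0.05 (limma). The part of these differences in the values of the histone deacetylases was not tested.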

How the data were processed

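Total RNA from microdissected CA1 was measured on Affymetrix whole-genome rat arrays, 1 array per rat. The deposited values are log2 signals per probe set that the authors made with GCRMA (background correction, normalization and summary of probes), per the submitters' processing notes, with version and settings not given in the sources used here. GCRMA can compress differences of dim probe sets. Of 24 columns, 1 was blank, that of an aged unimpaired array left out after quality control, per the labels. Probe sets were named from the platform annotation, with 20832 carrying 1 symbol, 436 several and 9831 none. No genome build is given, so no coordinates are used.

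Fits used limma 3.58.1 in R 4.3.3 on all 23 arrays with 3 group means and moderated variances, adjusted over 9076 genes. In aged minus young, each aged group counted in proportion to its arrays. The pipeline was tested on simulated data. No batch or date was given, so none was modelled. Alternatives covered the filter, probe set choice, scaling, weights, moderation, groups in the fit, a replicate block, an RNA quality covariate (3 prime minus 5 prime control probe sets), the threshold and each array left out. Plots were made in matplotlib 3.10.9 (Python 3.11.15).

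The members and lists were chosen with earlier results of these data known. All members were open to naming. In each list of related genes the called ones were named (at most 4), with Rcor1 added after its values were seen. Markers were given as counts, with called ones open to naming and Wfs1, Fibcd1, Prox1 and Ugt8 added. For likeness, up to 3 genes a member with the highest correlation were open to naming.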

Additional observations from a re-analysis of the deposited data

Results flagged for a closer look

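Of 33 sets of values (11 probe sets in 3 groups), 2 held an array that stood apart from its group by Dixon's criterion, where chance gives about 1 in 20. Hdac2 was highest in young replicate 2, at 11.03 log2 units. Hdac11 was lowest in young replicate 5, at 10.48.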

How the results depend on the processing

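None of the 32 differences of histone deacetylase genes was called in any alternative setting. Each difference had 34 alternatives, or 33 for Hdac1, which did not pass the stricter filter of 6 log2 units. Of the 1084 values these gave in all, which share their arrays, 1013 kept their sign. The smallest adjusted p, 0.0758, was that of Hdac3 in impaired minus young without the 3 arrays that correlated least with the others (aged impaired replicates 7 and 8 and young replicate 5), a fit added after seeing the data. The counts of called histone deacetylase genes and probe sets stayed at 0 throughout. Signs changed in some settings for Hdac5 in all 4 comparisons, Hdac2 in unimpaired minus young, Hdac6, Hdac8 and Hdac11 in impaired minus young, and Hdac1 in impaired minus unimpaired. That of Homer1 changed in unimpaired minus young with averaged probe sets.

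Counts over all genes moved more. For aged minus young, impaired minus young, unimpaired minus young and impaired minus unimpaired they were 337, 345, 69 and 0. A replicate block gave 159, 165, 31 and 1, and an adjusted p under 0.1 gave 524, 531 and 135 in the first 3. Array weights gave 149 for unimpaired minus young. Fitting only the groups compared gave 1 for impaired minus unimpaired. Leaving out 1 array gave 224 (without young replicate 2) to 407 (without aged impaired replicate 8) for aged minus young. It gave 228 (without aged impaired replicate 6) to 439 (without aged impaired replicate 8) for impaired minus young and 35 (without aged unimpaired replicate 4) to 86 (without young replicate 5) for unimpaired minus young.

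The labels do not say whether replicate numbers pair the arrays. Of 20 same-numbered pairs across groups, 1 had correlated deviations over 0.1 (range -0.27 to 0.12). Such correlations cannot show whether same-numbered arrays were processed together. The block is given as an arithmetic alternative only, and it changed no call of a histone deacetylase gene. In the Hdac2-bound list the count of 1 for impaired minus young was 0 without the filter, with averaged probe sets, with only the groups compared, with the replicate block and without the 3 arrays. Leaving out 1 array gave 0 to 1 there, and also 0 to 1 for aged minus young. In the corepressor list an adjusted p under 0.1 gave 1 for aged minus young and 1 for impaired minus young, leaving out 1 array gave 0 to 1 for impaired minus young, and leaving out the 3 arrays gave 1. The causes were not tested. Signal over background limits Hdac7 and the dimmer probe set of Hdac5.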
